A study of Rattus norvegicus with 10 samples.

Results

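The genes described here belong to the pathway by which Toll-like receptors switch on the transcription factor NF-kappaB. They are the receptors Tlr2 and Tlr4, the co-receptor Cd14, the adaptor Myd88, the NF-kappaB subunit genes Rela, Nfkb1, Relb and Nfkb2, the inhibitor Nfkbia and the adhesion molecule Icam1. They were taken by exact symbol from the deposited table of kidney cortex expression. All 10 were found, each in a single row, among 32545 genes, and all 10 passed the filter on low values that left 14508 genes for testing. The animals were wildtype Dahl salt-sensitive rats (SS/JrHsdMcwi), an inbred strain that becomes hypertensive when fed salt. They carried telemeters implanted at 8 to 9 weeks of age and ate 0.4% NaCl, with blood pressure recorded for 4 days, before 3 weeks on a test diet. The vehicle group (5 libraries) ate 4% NaCl alone, and the oxonic acid group (5 libraries) ate 4% NaCl with 2% oxonic acid, an inhibitor of uricase, with which rodents break down uric acid. Every library thus comes from a salt-loaded rat of this strain, and no group on the low salt diet was analysed here. Kidneys were perfused with PBS before harvest. The design names male and female rats without saying which sample is which. In each of the 10 libraries, 4 Y-linked genes with a mean of at least 0.5 FPKM stood at 0.723 of their median or more. Every library thus showed Y-linked expression, as male tissue does. No label ties a library to its own rat, so p-values here describe only how far these samples scatter, and some of that scatter may be technical. Gene identifiers and positions are those of the deposited table, whose genome build is not stated.

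Toll-like receptors sit on the surface or in the endosomes of immune cells and many epithelial cells and bind microbial products and molecules released by damaged cells. Cd14 hands lipopolysaccharide to Tlr4, and Tlr2 and Tlr4 signal through Myd88 and a chain of kinases to the IkappaB kinase complex. That complex marks the inhibitor encoded by Nfkbia for destruction, which frees dimers of NF-kappaB such as those of Rela with the p50 product of Nfkb1. Relb with the p52 product of Nfkb2 forms the dimer of a slower, noncanonical branch. Nfkbia, Nfkb1, Nfkb2, Relb and Icam1 are themselves known targets of NF-kappaB. In the kidney, Icam1 on endothelium and injured tubules helps leukocytes to adhere.

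All 10 members had lower mean values with oxonic acid than with vehicle, but the differences were small and none passed the test. Group means with oxonic acid were 84.8% to 99.1% of those with vehicle, Cd14, Icam1 and Relb differing the most and Rela the least. In limma's test across the 14508 genes, 0 of the 10 members had a Benjamini-Hochberg adjusted p under 0.05 (smallest 0.414, largest 0.965), where 0% of all genes tested were called in either direction. At an unadjusted p under 0.05 there were 1377 genes (9.49% of those tested), 627 of them higher (4.32%) and 750 lower (5.17%), and voom on the recovered reads gave 0 calls and 1412 genes at that level. Icam1 was the 1 member among them, on the lower side. The groups overlapped in all 10 members, whereas 1.91% of all genes tested had groups that did not overlap, 0.944% with oxonic acid higher and 0.965% with it lower. The median log2 difference of the members was -0.12, against 0.01 for all genes tested, of which 48.2% had a difference below 0.

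Several members are known targets of NF-kappaB, so stretches near their start sites that resemble its binding sequence are shown here. RefSeq promoters (build GRCr8, 250 bases before to 50 after an annotated start) were matched by symbol for 9 of the 10 members, the exception being Relb. They were searched on either strand for the NF-kappaB consensus and for GGNNNTTCC, a shorter pattern that overlaps it, both chosen after the sequences had been seen. The consensus was found in 4 of the 9 promoters (Tlr2, Nfkb1, Nfkb2 and Nfkbia) and in 4.16% of 27457 rat promoters of that length. GGNNNTTCC was found in 5 of the 9, the 4 named and Icam1, and in 18.3% of all promoters. Each line below gives a window of 30 bases read 5′ to 3′ on the gene's strand, with the match in capitals.
Icam1, chr8:27829617-27829646, plus strand: acttcagtttGGAAATTCCtgggtcgcagg
Icam1, chr8:27829686-27829715, plus strand: gtctccatccGGAAATACCgaagccctcat
Nfkbia, chr6:78597233-78597262, minus strand: ctggtcgggaGGACTTTCCagccactcagg
Nfkbia, chr6:78597084-78597113, minus strand: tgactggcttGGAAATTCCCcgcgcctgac
Nfkb2, chr1:255108344-255108373, plus strand: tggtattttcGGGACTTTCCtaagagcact
Nfkb1, chr2:226805440-226805469, minus strand: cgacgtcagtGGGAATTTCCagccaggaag
Tlr2, chr2:171504743-171504772, minus strand: aggcccttgGGGGAATTCCCatacggagcc
With the annotated start as base 0, the match shown for Nfkb2 runs from -20 to -11, the nearer one of Nfkbia from -31 to -22 and that of Nfkb1 from 3 to 12. The matches of Icam1 run from -218 to -210 and from -149 to -141, and that of Tlr2 from -206 to -196. Nfkbia and Nfkb2 each hold 1 further match to GGNNNTTCC, which begins at -213 and -119. The windows of Tlr4, Cd14, Myd88 and Rela held neither pattern. A match is a stretch of letters and does not show binding.

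**Figure D1:**
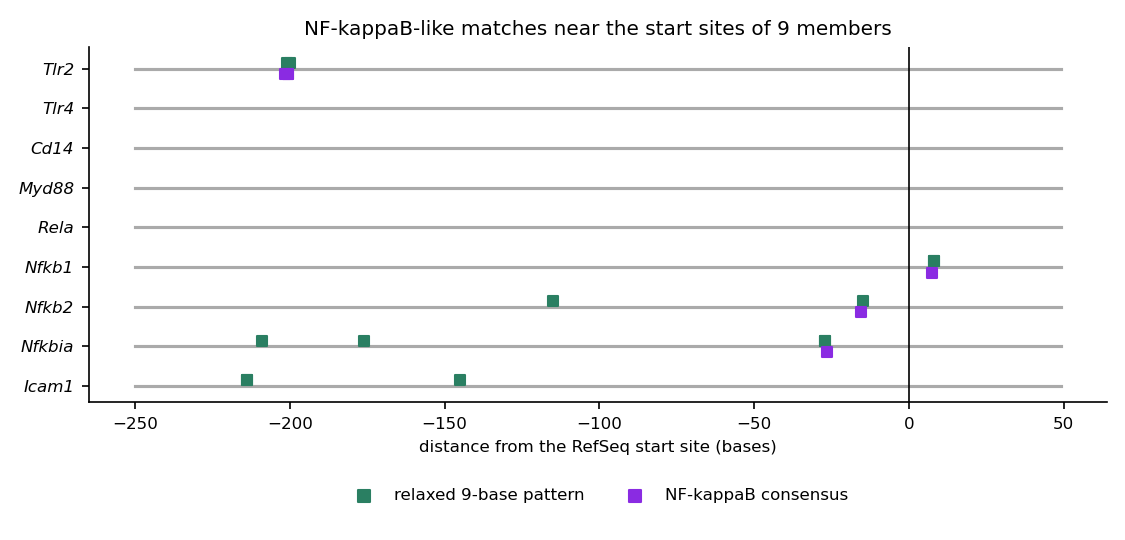
Position of pattern matches near the RefSeq start sites of 9 members. The horizontal axis gives the distance from the annotated start in bases, grey lines are the windows of 300 bases, and squares are matches to the shorter pattern (green) or the NF-kappaB consensus (purple). Tlr2, Nfkb1, Nfkb2, Nfkbia and Icam1 hold matches, and Nfkbia holds them at 3 places.

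Members differed widely in level. On the FPKM scale, which is per kilobase of gene length, the mean over the 10 libraries was 29.4 for Nfkbia and 2.01 for Tlr4, a 14.6-fold span. In between, from high to low, stood Rela, Nfkb1, Icam1, Myd88, Nfkb2, Relb, Cd14 and Tlr2. Among neighbours in that order, ranges over libraries were separate only between Rela and Nfkb1, between Nfkb2 and Relb and between Relb and Cd14. Nfkbia exceeded Rela in 9 of 10 libraries, Icam1 exceeded Myd88 in 9 of 10, and Tlr2 exceeded Tlr4 in 10 of 10. Reads behind a value ranged from 69 (Cd14) to 1548 (Nfkb1), so the receptor genes carry more counting error than the others. The libraries held 14536674 to 18508428 reads in genes.

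The cell surface receptors were the lowest members. Tlr4 (ENSRNOG00000010522, chr5:82587420-82601052, plus strand), the lipopolysaccharide receptor, measured 1.71, 1.61, 2.67, 1.94 and 1.73 FPKM in oxonic acid libraries 1 to 5 and 1.85, 2.62, 2.27, 1.69 and 1.98 FPKM in vehicle libraries 1 to 5. The highest value belonged to oxonic acid library 3 and the groups overlapped across nearly their whole range. Its log2 difference was -0.09 (SE 0.14, 95% interval -0.40 to 0.22, limma adjusted p = 0.847). It was -0.19 without oxonic acid library 3, -0.04 without oxonic acid library 2, -0.15 without vehicle library 4 and -0.02 without vehicle library 2, so the size of the Tlr4 value rests on single libraries. Tlr2 (ENSRNOG00000009822, chr2:182840727-182846061, minus strand), which senses bacterial lipoproteins together with Tlr1 or Tlr6, measured 2.84, 2.66, 3.35, 2.84 and 2.31 FPKM under oxonic acid and 2.44, 3.54, 3.24, 2.99 and 2.56 FPKM under vehicle. Here too a library of each group stood high, oxonic acid 3 and vehicle 2. The log2 difference of Tlr2 was -0.06 (SE 0.12, 95% interval -0.32 to 0.19, limma adjusted p = 0.883), and with any 1 library left out it ranged from -0.12 (without oxonic acid library 3 or vehicle library 1) to -0.002 (without vehicle library 2).

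Cd14 (ENSRNOG00000017819, chr18:29560365-29562153, minus strand) had the largest log2 difference of any member by a small margin over Icam1. Its values were 4.86, 2.80, 5.01, 3.95 and 4.10 FPKM under oxonic acid and 4.75, 4.96, 5.09, 5.21 and 4.42 FPKM under vehicle. Oxonic acid library 2 was the lowest of the 10, while oxonic acid libraries 1 and 3 lay inside the vehicle range. The group means were 4.14 ± 0.881 and 4.89 ± 0.314 FPKM (SD, n = 5 each), which is -0.23 on the log2 scale (SE 0.13, 95% interval -0.52 to 0.05, limma adjusted p = 0.577). Without oxonic acid library 2 the log2 difference of Cd14 was -0.12, and without oxonic acid library 3 it was -0.30.

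Myd88 (ENSRNOG00000013634, chr8:128022473-128026841, minus strand), the adaptor shared by Tlr2, Tlr4 and the interleukin 1 receptor, varied little. It measured 15.3, 13.8, 13.8, 14.7 and 15.0 FPKM under oxonic acid and 14.7, 16.2, 14.9, 17.8 and 15.7 FPKM under vehicle. Oxonic acid libraries 2 and 3 were the lowest and vehicle library 4 the highest, and oxonic acid libraries 1 and 5 lay inside the vehicle range. The log2 difference was -0.12 (SE 0.06, 95% interval -0.26 to 0.02, limma adjusted p = 0.562), and -0.08 without vehicle library 4.

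Of the NF-kappaB subunits, Rela and Nfkb1 form the canonical dimer. Rela (ENSRNOG00000030888, chr1:220992770-221003249, plus strand), which encodes the transactivating subunit p65, measured 26.7, 26.3, 26.5, 23.9 and 25.2 FPKM under oxonic acid and 24.7, 28.3, 24.1, 25.4 and 27.3 FPKM under vehicle. Its highest value was in vehicle library 2 and its lowest in oxonic acid library 4, with values of either group in between. Its log2 difference was -0.01 (SE 0.06, limma adjusted p = 0.965), with a 95% interval of -0.14 to 0.12. Nfkb1 (ENSRNOG00000023258, chr2:240773456-240866689, minus strand), which encodes p105 and its product p50, measured 17.8, 18.1, 18.3, 20.7 and 19.7 FPKM under oxonic acid and 20.8, 21.1, 19.0, 18.4 and 20.8 FPKM under vehicle. Oxonic acid libraries 1 to 3 were the lowest for Nfkb1, while libraries 4 and 5 lay among the vehicle values. The log2 difference of Nfkb1 was -0.08 (SE 0.06, 95% interval -0.21 to 0.06, limma adjusted p = 0.694).

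Relb and Nfkb2 belong to the noncanonical branch, and whether they differed by more than Rela and Nfkb1 was not tested. Relb (ENSRNOG00000033235, chr1:80517411-80544825, minus strand) measured 7.55, 7.42, 7.31, 6.82 and 9.34 FPKM under oxonic acid and 7.09, 9.70, 8.45, 9.91 and 9.91 FPKM under vehicle. Vehicle library 1 lay among the low oxonic acid values and oxonic acid library 5 among the vehicle values, and the other 8 libraries separated by group. Its means were 7.69 ± 0.962 and 9.01 ± 1.23 FPKM (SD, n = 5 each), so that the log2 difference was -0.21 (SE 0.11, 95% interval -0.45 to 0.02, limma adjusted p = 0.552). Nfkb2 (ENSRNOG00000019311, chr1:266053002-266059256, plus strand), which encodes p100 and its product p52, measured 10.5, 11.9, 12.1, 11.5 and 12.8 FPKM under oxonic acid and 11.6, 13.8, 11.9, 16.7 and 12.8 FPKM under vehicle. Vehicle library 4 stood above the rest for Nfkb2. The log2 difference of Nfkb2 was -0.17 (SE 0.10, 95% interval -0.38 to 0.04, limma adjusted p = 0.594), and -0.09 without vehicle library 4.

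Nfkbia (ENSRNOG00000007390, chr6:76267228-76270457, minus strand), the inhibitor that holds NF-kappaB in the cytoplasm, was the most abundant member. It measured 29.8, 25.2, 27.4, 28.8 and 29.9 FPKM under oxonic acid and 32.6, 29.4, 28.7, 31.8 and 30.6 FPKM under vehicle. All 5 oxonic acid values were below the vehicle median of 30.6 FPKM, but the upper 3 lay within the vehicle range. The log2 difference was -0.12 (SE 0.06, 95% interval -0.25 to 0.02, limma adjusted p = 0.562). It was -0.08 without oxonic acid library 2 and -0.06 with the runs of sample numbers, described below for Icam1, as a covariate.

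Icam1 (ENSRNOG00000020679, chr8:22035256-22047059, plus strand), the leukocyte adhesion molecule, was the member with the smallest p. It measured 12.7, 14.2, 14.7, 16.4 and 15.3 FPKM under oxonic acid and 15.5, 17.3, 16.2, 18.7 and 18.7 FPKM under vehicle. In oxonic acid 4 of 5 libraries were below the lowest vehicle library, and library 4 overlapped vehicle libraries 1 and 3. The means were 14.7 ± 1.37 and 17.3 ± 1.48 FPKM (SD, n = 5 each), or -0.23 as a log2 difference (SE 0.08, 95% interval -0.40 to -0.06, unadjusted p = 0.0140), which did not pass over all genes (limma adjusted p = 0.414). Sample numbers given in the labels were split here into 3 runs at their larger gaps. The labels nowhere call these runs batches. Oxonic acid libraries 1 to 3 make up run A without any vehicle library, oxonic acid library 4 shares run B with vehicle libraries 1 to 3, and oxonic acid library 5 shares run C with vehicle libraries 4 and 5. Within run B the log2 difference of Icam1 was 0.01 and within run C -0.29, and with the runs as a covariate it was -0.13 (SE 0.09, limma adjusted p = 0.796).

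**Figure D2:**
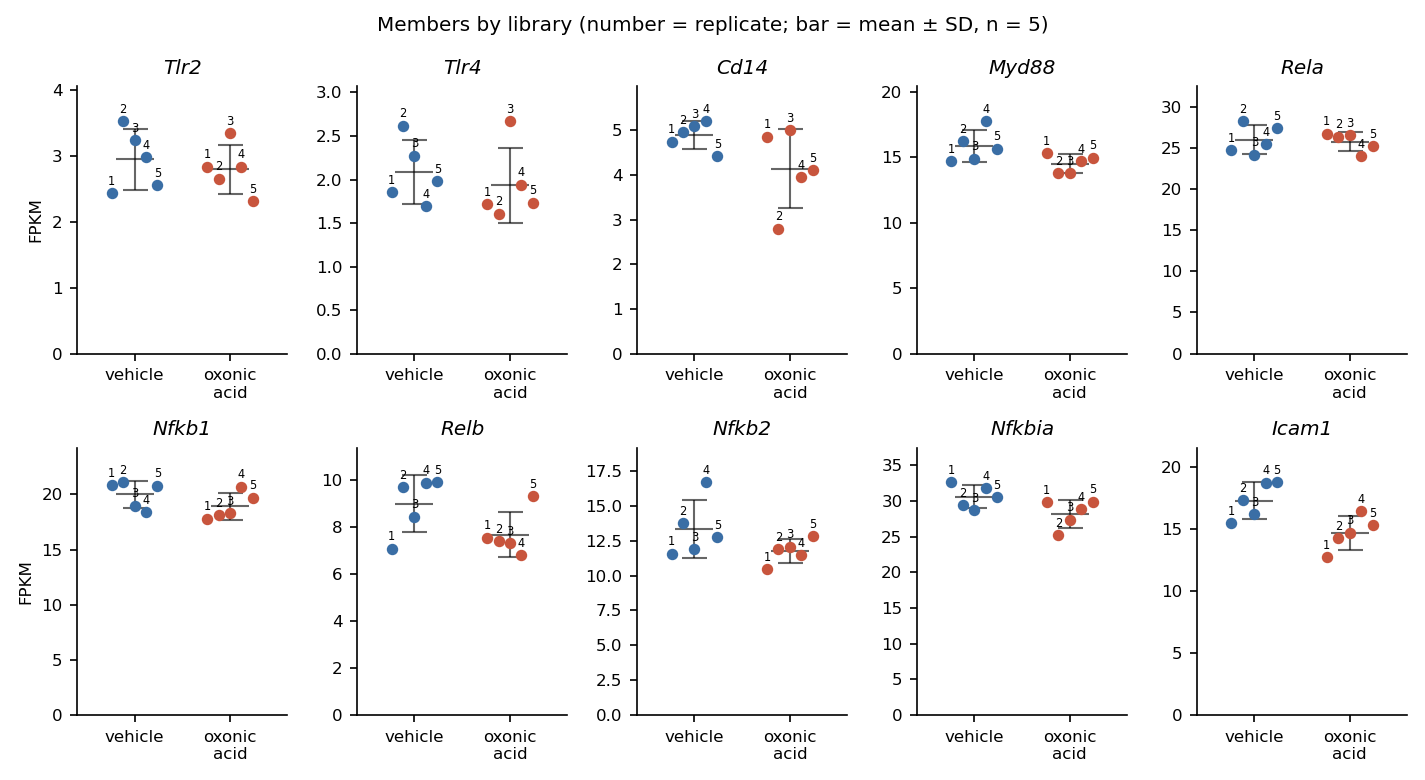
FPKM of the 10 members (vertical axes from 0) in the 5 vehicle libraries (blue) and 5 oxonic acid libraries (red), numbered by replicate, with mean ± SD as black bars. The groups overlap in every panel, and the separation is clearest for Icam1, at 12.7 to 16.4 against 15.5 to 18.7 FPKM.

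The plot of differences with their intervals places 9 of the 10 intervals across 0, Icam1 being the exception before adjustment. The log2 differences of Relb, Cd14, Nfkb2 and Myd88 were -0.27, -0.29, -0.10 and -0.05 within run B. Within run C they were -0.08, -0.20, -0.18 and -0.15, so each was below 0 in both runs. So were Tlr2 (-0.08 and -0.21), Tlr4 (-0.16 and -0.06), Nfkbia (-0.06 and -0.06) and Rela (-0.10 and -0.06). Each of these values rests on 1 oxonic acid library per run, and how many of all genes behave so was not counted. With the runs as a covariate, Relb, Cd14, Nfkb2 and Myd88 had -0.18, -0.25, -0.14 and -0.10, against -0.21, -0.23, -0.17 and -0.12 without it. For Nfkb1 the values within runs B and C were 0.03 and 0.01.

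**Figure D3:**
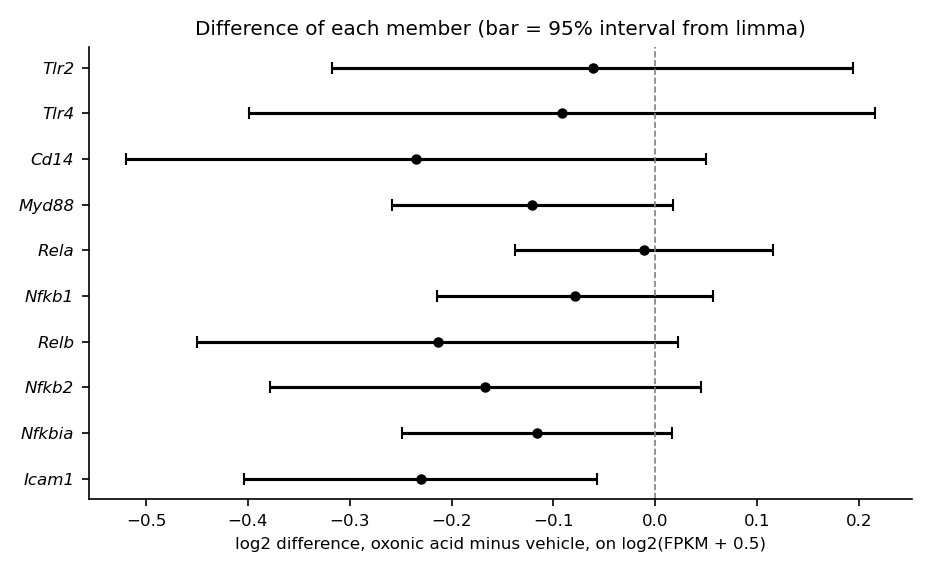
Log2 difference of each member, oxonic acid minus vehicle, on log2(FPKM + 0.5) (horizontal axis), with 95% intervals from limma as bars. All 10 points lie below 0, from -0.23 to -0.01, and 9 of the 10 intervals include 0.

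Libraries differed in how many members stood high. The lowest library was an oxonic acid library for all 10 members (43.7% of all genes tested), and the highest was a vehicle library for 9 of 10 (54.0% of all genes tested), the exception being Tlr4. Vehicle library 2 was above the mean of the gene for all 10 members, vehicle libraries 4 and 5 for 7 each, and oxonic acid library 2 for 1. Averaged over the members, the log2 deviation was 0.16 in vehicle library 2, 0.12 in vehicle library 4 and -0.17 in oxonic acid library 2. Vehicle library 4 also held the highest value for 22.4% and the lowest for 21.9% of all genes tested, so it stood apart well beyond this pathway, and it lay at 39.8 on the first principal component against -13.7 to 15.5 for the other libraries.

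**Figure D4:**
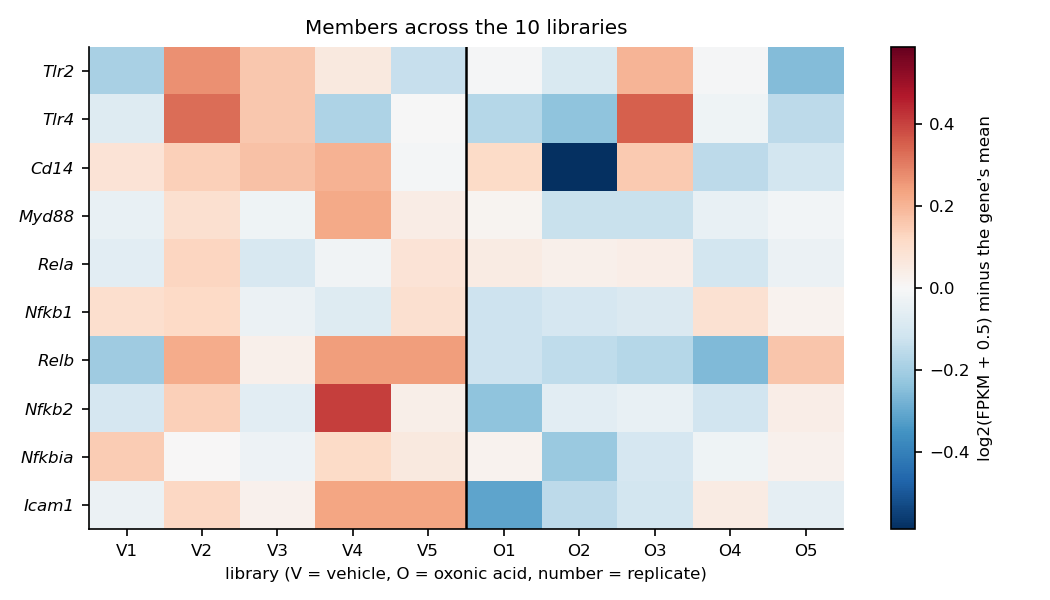
Deviation of each member from its own mean on the log2(FPKM + 0.5) scale (colour) in the 5 vehicle libraries (V) and 5 oxonic acid libraries (O). Vehicle library 2 is above the mean for all 10 members, and oxonic acid library 2 is above it for 1.

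The members followed each other over libraries only in part. Of 45 pairs, 39 had a Pearson r above 0 across the 10 libraries (median 0.27), and 28 with the group means removed (median 0.04). These are descriptions over libraries that share depth and tissue composition, and no p is given. The receptors Tlr2 and Tlr4 had the highest r of any pair, 0.76. Nfkb2 had r of 0.75 with Icam1 and with Myd88 and 0.74 with Relb, which were 0.64, 0.65 and 0.65 with the group means removed. Icam1 had lower r with Relb (0.66, or 0.46 with the group means removed) and with Myd88 (0.63, or 0.36). Vehicle library 4 stood high for Nfkb2, Myd88, Relb and Icam1, by 0.41, 0.22, 0.25 and 0.23 on the log2 scale from the gene's mean. The r values of these genes without that library were not computed. Tlr2 and Nfkbia had the lowest r, -0.26.

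Outside the members, the genes with the most similar pattern were sought among 11651 others. These had a mean of at least 1 FPKM and no symbol prefix listed as provisional, such as LOC or RGD, and each symbol counted once. High values of r thus arise from the search itself. For Icam1 the closest genes were Steap1 (r = 0.97) and F3, the tissue factor gene and a listed NF-kappaB target (r = 0.96). For Nfkb2 they were the deubiquitinase Josd2 (0.98) and the cytokine Lif (0.95), and for Relb the GTPase Gem (0.96) and a copy of the small nuclear RNA U1 (0.95). Myd88 was closest to the ribosomal protein gene Rps4y2 and the prefoldin subunit Pfdn4 (r = 0.96 each). Nfkbia was closest to the nucleoside diphosphate kinase Nme1 (0.96) and the splicing factor Prpf6 (0.92), Nfkb1 to Zbtb7c (0.96) and the arylsulfatase Arsb (0.91), and Rela to Slc8b1 (0.95) and AC091481.2 (0.90). Tlr2 was closest to the septin Sept7 (0.92) and the nucleoporin Nup62 (0.91), Tlr4 to albumin, Alb (0.92), and Ifitm3 (0.89), and Cd14 to Serpinb6 (0.92) and Gdpd1 (0.91). The Alb values averaged 0.929 ± 1.94 FPKM under oxonic acid and 1.12 ± 1.79 FPKM under vehicle (SD, n = 5 each), so its likeness to Tlr4 rests on few libraries.

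The rest of the pathway gave 0 calls as well. As a background for the counts below, 48.2% of all genes tested were lower. Of 15 other Toll-like receptor and accessory genes tested, 9 were lower and 6 higher, with a median log2 difference of -0.04. The smallest p in that list was that of Unc93b1, which escorts the nucleic acid sensing receptors to endosomes, at 11.4 ± 0.860 FPKM under oxonic acid and 13.8 ± 1.18 FPKM under vehicle (SD, n = 5 each; log2 difference -0.27, limma adjusted p = 0.364). Its groups did not overlap, a separation towards lower values that 0.965% of all genes tested showed. Tlr3, the receptor for double-stranded RNA, which does not use Myd88, had the opposite sign at 8.58 ± 1.51 and 6.89 ± 0.843 FPKM (log2 difference 0.29, limma adjusted p = 0.494), and 0.12 with the runs as a covariate. The receptor chaperones Hsp90b1 and Cnpy3 had log2 differences of -0.20 and -0.06.

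Signalling adaptors and kinases were split evenly, 13 lower and 11 higher of 24 tested, with a median of -0.01. Map3k7, the kinase TAK1 that activates the IkappaB kinases, had the largest log2 difference, -0.81 (limma adjusted p = 0.371), at a level of only 0.416 ± 0.211 FPKM under oxonic acid and 1.14 ± 0.466 FPKM under vehicle (SD, n = 5 each). Within runs B and C its log2 difference was -0.07 and -1.56. The ubiquitin-conjugating enzyme Ube2n had -0.13, the adaptor Traf3 0.18, the kinase Irak1 -0.04 and the receptor inhibitor Sigirr -0.03, and none passed.

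Other NF-kappaB subunits, inhibitors and brakes leaned the way of the members, with 13 of 14 lower, a median log2 difference of -0.09 and 0 called. Bcl3, an atypical IkappaB protein that binds p50 and p52, measured 8.80 ± 2.05 FPKM under oxonic acid and 13.4 ± 2.62 FPKM under vehicle (SD, n = 5 each), or -0.58 on the log2 scale (SE 0.17, limma adjusted p = 0.371). By library it was 6.14, 7.67, 8.57, 11.3 and 10.3 FPKM under oxonic acid and 10.8, 15.5, 10.9, 16.6 and 12.9 FPKM under vehicle, and oxonic acid library 4 alone reached into the vehicle range. With the runs as a covariate the log2 difference of Bcl3 was -0.29 (limma adjusted p = 0.778), and within runs B and C it was -0.11 and -0.49. Nfkbiz and Nfkbie, further IkappaB proteins, had log2 differences of -0.35 and -0.23. Those of Tnip1, a partner of the deubiquitinase A20, and Commd1 were -0.08 and -0.11.

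NF-kappaB target genes had 19 of 25 tested members lower, a median of -0.12 and 0 called. Tissue factor F3 measured 41.6 ± 8.25 and 57.9 ± 13.6 FPKM (log2 difference -0.46, limma adjusted p = 0.449), the apoptosis inhibitor Birc3 4.52 ± 0.861 and 6.41 ± 1.74 FPKM (-0.44, 0.473), and lipocalin Lcn2 17.0 ± 5.07 and 29.1 ± 12.7 FPKM (-0.72, 0.481), with oxonic acid first and SD over n = 5 each. With the runs as a covariate these log2 differences were -0.22 for F3, -0.17 for Birc3 and -0.45 for Lcn2. Within runs B and C they were 0.01 and -0.47 for F3, -0.52 and 0.23 for Birc3, and -0.26 and -0.67 for Lcn2, so neither F3 nor Birc3 was lower in both runs. The most abundant listed targets had the opposite sign, at 0.05 for the mitochondrial superoxide dismutase Sod2 and 0.07 for urokinase Plau. Tnf, Il6, Sele, Selp and Cxcl2, inflammatory targets of the same factor, averaged 0.0270 to 0.283 FPKM and were below the filter. Other inflammatory targets of the list were above it, such as Cxcl10 (11.4 FPKM), Vcam1 (8.32), Ccl2 (7.42), Ccl5 (6.35) and Il1b (2.65). Endogenous Toll-like receptor ligands had 5 of 7 lower and 2 higher, with a median of -0.09. Among them galectin 3, Lgals3, had a log2 difference of -0.35, tenascin Tnc -0.28, biglycan Bgn -0.09, the chaperonin Hspd1 -0.03 and versican Vcan 0.27, and none passed.

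**Figure D5:**
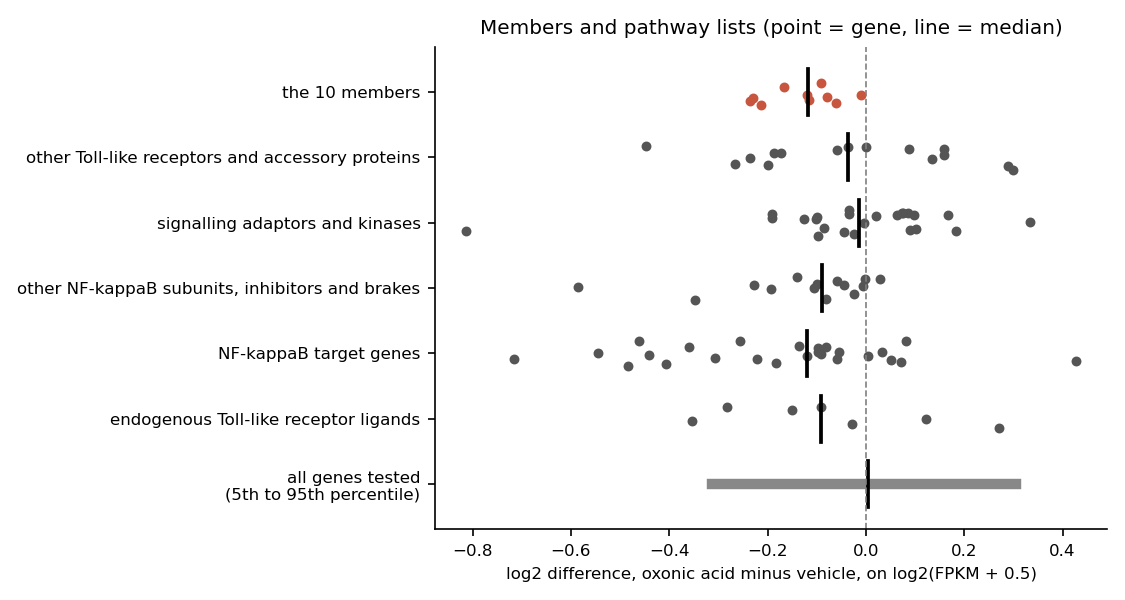
Log2 difference, oxonic acid minus vehicle, on log2(FPKM + 0.5) (horizontal axis) for each tested gene (points) of the members (red) and of 5 pathway lists (grey), with medians as black lines. The grey bar spans the 5th to 95th percentile of all genes tested, -0.31 to 0.31, which holds all 10 members.

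Markers of other cell types differed between the libraries too. In whole cortex, fewer cells of a type and less RNA per cell cannot be told apart. The labelled tissue was checked with the proximal tubule gene Slc34a1, at 1774 ± 177 and 1662 ± 181 FPKM (SD, n = 5 each, oxonic acid first). Inner medulla markers summed to 117.1 FPKM in oxonic acid library 3, against 16.6 to 38.0 in the other libraries, and that library held the highest Tlr4 value. Akr1b1 alone made up 93.7 FPKM of that sum and 14.8 to 35.7 FPKM of the sums elsewhere. Macrophages and monocytes are rich in Cd14, Tlr2 and Tlr4. Of their markers 14 of 15 tested were lower, 0 called and 6 at an unadjusted p under 0.05, with a median log2 difference of -0.22. Of all genes tested, 48.2% were lower, and 5.17% were lower and 4.32% higher at that unadjusted level. The summed level of the macrophage and monocyte markers was 448.7 to 563.2 FPKM under oxonic acid and 523.1 to 709.5 FPKM under vehicle. Much of it was Lyz2 alone, which averaged 252 and 296 FPKM of sums averaging 499 and 590 FPKM (oxonic acid first). Vehicle library 2, high for all 10 members, had the highest sum, and oxonic acid library 2, lowest for Cd14, Tlr4 and Nfkbia, had the lowest. Oxonic acid library 3, highest for Tlr4, had a sum of 515.4 FPKM, and oxonic acid library 5, lowest for Tlr2, one of 453.2 FPKM. Csf1r and Adgre1, defining genes of these cells, had log2 differences of -0.08 and -0.06, and Cd68 -0.18. Further markers of the list had larger ones, at -0.55 for the mannose receptor Mrc1 and -0.35 for the adaptor Tyrobp. The groups of Mrc1 and Tyrobp did not overlap, a separation towards lower values that 0.965% of all genes tested showed. The complement genes C1qb and C1qa had -0.37 and -0.31 (limma adjusted p of 0.333 to 0.400 for the 4 genes). T, NK and B cell markers were lower for 6 of 6 tested, 3 of them at an unadjusted p under 0.05, with a median of -0.28. Fibroblast and pericyte markers were lower for 5 of 8, 3 at that level. Collecting duct markers were higher for 6 of 6, 4 at that level, and thick limb and distal tubule markers for 5 of 5, 1 at that level, with 0 called in each of these lists. Neutrophil markers were near 0: 1 of 9 had a mean of at least 0.5 FPKM, Csf3r at 0.605, and Mpo stood at 0.0151. Endothelial cells carry Icam1, and 7 of 9 tested markers of theirs were higher, 2 of them at an unadjusted p under 0.05 and 0 called. Their sums were 185.7 to 247.8 FPKM under oxonic acid and 175.4 to 227.0 FPKM under vehicle. The part of macrophage or other cell content in the members' values was not tested.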

How the data were processed

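Kidney cortex RNA from 10 samples (5 oxonic acid, 5 vehicle) was measured. Per the labels' protocols, poly-T beads captured messenger RNA for Illumina sequencing, and the text leaves unsettled whether libraries were directional, so reads of antisense genes may be included. The submitters' processing notes name featureCounts 1.5.0-p3, StringTie 1.3.3b, HISAT2 2.0.5 and fastp. Genome build and annotation release: not given in the sources used here. The deposited table holds FPKM computed by the authors. Each column carries the name found in a sample's description. FPKM multiplied by gene length gave whole reads (100% of values within 0.01 of a whole number), 14536674 to 18508428 per library. FPKM is a relative measure, so a shift in abundant transcripts moves the share of the others, and mitochondrial transcripts took 11.6% to 13.5% of reads with oxonic acid and 9.23% to 12.1% with vehicle. No other gene of the table overlaps a member by its coordinates.

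Genes with a mean of at least 0.5 FPKM were tested on log2(FPKM + 0.5) with limma 3.58.1 in R 4.3.3 (lmFit, eBayes with a trend), two-sided, with Benjamini-Hochberg adjustment over 14508 genes and a threshold of 0.05. The pseudocount understates the change of low genes. On simulated data for this comparison (3 draws over 14508 genes) calls were made for 19.3% of 1.25-fold, 65.3% of 1.5-fold and 84% of 2-fold changes, and for 0.0489% of genes left as they were. Noise was drawn independently for each gene and library, without runs or an outlying library as in the real data. All members differed by less than the smallest change simulated, so these rates do not cover differences of their size. The members and lists were chosen with earlier results of these data known. All members are named. Of each pathway list, the 3 genes with the smallest p and the 2 most abundant are named. So are, for each member, the 2 genes most like it by Pearson r. Of the defining genes of the marker lists, Cd68, Csf1r, Adgre1, Csf3r, Mpo and Slc34a1 are described above. Cdh5, Lrp2, Umod and Slc14a2 had log2 differences of 0.11, 0.15, 0.26 and 0.94 (limma adjusted p of 0.598 to 0.837). Slc14a2 measured 16.0 FPKM in oxonic acid library 3 and at most 0.505 FPKM elsewhere. Pecam1 was not found by symbol. Beyond these rules, Tnf, Il6, Sele, Selp, Cxcl2, Cxcl10, Vcam1, Ccl2, Ccl5 and Il1b were named after their values were seen. So were Mrc1, Tyrobp, C1qa, C1qb, Lyz2, Akr1b1 and the ratios in the closing section. Promoter sequences are from RefSeq (GRCr8), with both strands searched. Alternatives covered the pseudocount, filter, scaling, voom on the recovered reads, library weights, replicate block, sample-number runs and left-out libraries. Python 3.11.15 and matplotlib 3.10.9 made the figures.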

Additional observations from a re-analysis of the deposited data

Results flagged for a closer look

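In 68 groups of 5 libraries (34 named genes in either group), 6 values stood apart from the other 4 libraries of their group by more than 0.710 of the group's range, Dixon's 95% critical value. Chance flags about 1 in 20 groups. None of the 10 members had such a value. The outlying values were those of Cnpy3 in vehicle library 2 (42.3 FPKM, the others 47.1 to 48.2), Traf3 in oxonic acid library 2 (9.98 FPKM, the others 8.22 to 8.69) and Nfkbie in oxonic acid library 5 (13.9 FPKM, the others 9.84 to 10.96). The rest were Commd1 in vehicle library 4 (34.0 FPKM, the others 27.2 to 28.2), Hspd1 in vehicle library 4 (375.3 FPKM, the others 283.1 to 296.0) and Hspd1 in oxonic acid library 3 (282.7 FPKM, the others 301.2 to 308.8).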

How the results depend on the processing

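Under the 22 alternatives, of which leaving out run A and leaving out vehicle library 4 together with oxonic acid library 3 were chosen after seeing the data, 0 members and 0 pathway genes were called. Over all genes 0 were called, except 1 with library quality weights and 0 to 1 with a library left out. Members below 0 numbered 9 or 10 of 10 in every alternative. Icam1 ranged from -0.27 to -0.12 on the log2 scale, with limma adjusted p of 0.327 to 0.992. Members at an unadjusted p under 0.05 numbered 1, and 4 with equal library totals (Icam1, Myd88, Nfkbia and Relb), 2 with quantile normalization, 0 with the runs as a covariate, 0 without vehicle library 4 and oxonic acid library 3, and 1 to 2 with a library left out. Without run A the number was again 1, but the gene was Cd14 (-0.25, unadjusted p = 0.0413, limma), and Icam1 had an unadjusted p of 0.268. At that level there were 1377 genes in all, 1574 with equal library totals, 1471 with quantile normalization and 971 with the runs as a covariate. Without run A, where 2 oxonic acid libraries remain, there were 528. Equal library totals also moved the median log2 difference of all genes from 0.005 to -0.026. Signs turned for Nfkb1 (0.021 with the runs as a covariate and 0.016 without run A), Rela (0.015 with quality weights, and -0.036 to 0.020 with a library left out), Sigirr (0.028 with the runs, and -0.057 to 0.012 with a library left out), Vcan (-0.0048 with the runs) and Hspd1 (0.015 with quality weights, and -0.055 to 0.046 with a library left out). Rela was above 0 without oxonic acid library 4, vehicle library 2 or vehicle library 5, Sigirr without oxonic acid library 3 and Hspd1 without vehicle library 4. The cause was not tested. Same-numbered libraries did not deviate together (r of -0.01 to 0.20, 1 of 5 pairs above 0.1, and 1 of 5 oxonic acid libraries most like its own number). With the replicate block 0 genes were called, 1445 had an unadjusted p under 0.05, and Icam1 had an adjusted p of 0.347. Depth limits the receptor genes most, with 69 to 174 reads behind each value of Cd14, Tlr2 and Tlr4.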

Other observations

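Ratios between members compare levels per gene length within a library. Nfkbia over Rela, the inhibitor against the subunit it holds, was 1.10 ± 0.105 with oxonic acid and 1.18 ± 0.110 with vehicle (SD, n = 5 each), and the groups overlapped. Rela over Relb, the canonical against the noncanonical transactivating subunit, was 3.38 ± 0.387 and 2.91 ± 0.342 in the same order, with ranges of 2.70 to 3.63 and 2.56 to 3.48. Nfkb2 over Relb, the partners of the noncanonical dimer, was 1.54 ± 0.149 and 1.49 ± 0.166. The ratio of the adaptor Myd88 to Tlr4 spread most widely, from 5.16 to 10.5 over the libraries, at 7.78 ± 1.56 and 7.82 ± 1.69. Tlr4 over Tlr2 was 0.688 ± 0.0863 and 0.709 ± 0.0842. These ratios were chosen after the values were seen and were not tested.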
